A study of Mus musculus with 36 samples.

Results

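Ion channel genes were followed with age in quadriceps muscle of mice that lack a sarcoglycan. Members were all oligonucleotides whose probe annotation gives 1 gene symbol beginning with Kcn, Cacn or Clcn, or with Scn and a digit. The rule chose 89 of 8129 oligonucleotides, which stand for 81 genes: 54 oligonucleotides of 50 potassium channel genes, 21 of 18 calcium channel genes, 6 of 6 sodium channel genes and 8 of 7 chloride channel genes. The rule reads gene symbols and no measured value. All 89 were matched to a RefSeq gene by gene ID, with the same symbol. *Scn4a* and *Cacna1s*, which encode the pores of the main sodium and L-type calcium channels of muscle fibres, are not analysed here.

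BSG mice are deficient in beta-sarcoglycan and GSG mice in gamma-sarcoglycan, so every group lacks a member of the sarcoglycan complex, and WT and MDX mice are not analysed here. In each strain, 2 mice were taken at each of 9 ages, from 1 and 2.5 weeks in steps of 2 weeks from 4 to 14 weeks and then at 20 weeks. RNA of the 36 mice was compared on 36 dual-channel arrays in 4 closed loops of 9 arrays, 2 loops per strain. Each array set an age (Cy5) against the preceding age (Cy3), and a closing array set 1 week against 20 weeks, so a gene is known only relative to 1 week within its strain. Values are log ratios, taken as log2 of the later over the earlier age. That direction is likely, since *Dlk1*, a gene of newborn muscle, then falls after 1 week.

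Ion channels let potassium, sodium, calcium or chloride cross a membrane. In a skeletal muscle fibre, sodium channels carry the action potential, potassium channels end it, chloride channels hold the resting potential steady, and the voltage sensor of an L-type calcium channel in the transverse tubules triggers release of calcium for contraction. Pore subunits form the channel, and auxiliary subunits bind to the pore and set its opening or its transport to the membrane. Many of the genes below are best known from nerve, heart, vessels or epithelia, which a piece of whole muscle also holds in part.

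The promoters of 3 members show the genes the results turn on: *Kcne1l* and *Kcnj8*, the members called lower at 20 weeks in both strains, and *Clcn1*, the chloride channel of muscle fibres, whose 2 oligonucleotides disagreed. Each runs 5′ to 3′ from 250 bases before to 50 bases after the start of transcription (RefSeq, build GRCm38.p6), at chrX:142306149-142306448 (minus strand) for *Kcne1l*, chr6:142571565-142571864 (minus strand) for *Kcnj8* and chr6:42286435-42286734 (plus strand) for *Clcn1*. Capitals mark the E-box CANNTG, a motif bound by myogenic factors among others, and, in *Clcn1*, the run CTATAAATAG, which matches the MEF2 consensus.
Kcne1l: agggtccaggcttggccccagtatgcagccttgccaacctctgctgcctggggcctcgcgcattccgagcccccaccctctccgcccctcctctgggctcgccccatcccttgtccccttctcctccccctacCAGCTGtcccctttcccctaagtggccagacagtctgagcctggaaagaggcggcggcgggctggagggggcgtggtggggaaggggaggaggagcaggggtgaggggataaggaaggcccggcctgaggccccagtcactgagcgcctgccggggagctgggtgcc
Kcnj8: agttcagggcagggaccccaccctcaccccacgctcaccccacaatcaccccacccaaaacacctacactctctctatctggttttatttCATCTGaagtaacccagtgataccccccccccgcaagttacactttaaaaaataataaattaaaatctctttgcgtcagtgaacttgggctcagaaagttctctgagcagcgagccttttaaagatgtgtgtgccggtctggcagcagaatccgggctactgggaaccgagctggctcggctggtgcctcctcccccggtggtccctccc
Clcn1: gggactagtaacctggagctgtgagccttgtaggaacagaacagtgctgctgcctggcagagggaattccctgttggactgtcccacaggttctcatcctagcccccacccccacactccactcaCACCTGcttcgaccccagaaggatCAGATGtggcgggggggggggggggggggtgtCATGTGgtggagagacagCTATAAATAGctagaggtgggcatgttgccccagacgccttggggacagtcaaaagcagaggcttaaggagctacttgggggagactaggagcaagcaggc
The *Kcne1l* promoter held 1 E-box, of the form CAGCTG, that of *Kcnj8* held 1 and that of *Clcn1* held 3. Both motifs read the same on either strand apart from their free bases, both strands were searched, and they did not overlap here. Of 32851 RefSeq promoters of this length, 72.3% held CANNTG, 16.3% held CAGCTG and 0.56% held the MEF2 consensus. A match is a description of the sequence, not a binding site. Of the 81 genes, 66 had a promoter in the table.

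Few channel genes passed the test between 1 and 20 weeks, and most of those that did had lower values at 20 weeks. In BSG, 3 of 89 oligonucleotides (3.37%) were called, where 1.28% of all 8129 were. These were *Kcne1l*, *Kcnj8* and *Kcnmb4*, all lower (0.849% of all oligonucleotides were called lower and 0.431% higher). In GSG, 5 of 89 were called (5.62%, with 3.74% of all), of which *Kcne1l*, *Kcnj8*, *Clcn5* and *Cacna2d1* were lower (4.49%, with 3.03% of all) and *Kcnq5* was higher (1.12%, with 0.713% of all). A call is an adjusted p under 0.05 (limma, Benjamini-Hochberg over 8129 oligonucleotides). With so few calls, nothing is read from the shares. With arrays scaled to the same spread, or with 1 value per animal and the loop as a replicate block, 1 member was called in each strain, *Kcne1l*, so that 2 of 3 calls in BSG and 4 of 5 in GSG were lost. *Kcne1l* and *Kcnj8* were called lower in both strains (2.25% of members, with 0.504% of all), and 0 members were called higher in both (0.0984% of all). At an unadjusted p under 0.05 there were 7 members in BSG and 10 in GSG.

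Over all 89 oligonucleotides the median change from 1 to 20 weeks was -0.01 in BSG and 0.00 in GSG, beside -0.02 and -0.01 over all 8129. In each strain 44 members lay above 0 and 45 below. The central 80% of BSG values ran from -0.30 to 0.21 and of GSG values from -0.34 to 0.24, with standard errors from 0.12 to 0.41 (median 0.19). Beyond 0.5 in size were 5 members in BSG and 9 in GSG, and beyond 1 were 2 in each. The 2 mice of a strain differed at 20 weeks by a median of 0.27 in BSG and 0.24 in GSG and lay on opposite sides of 0 for 41 and 42 members. For most channel genes a change was therefore not detectable with 2 mice per age.

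**Figure D1:**
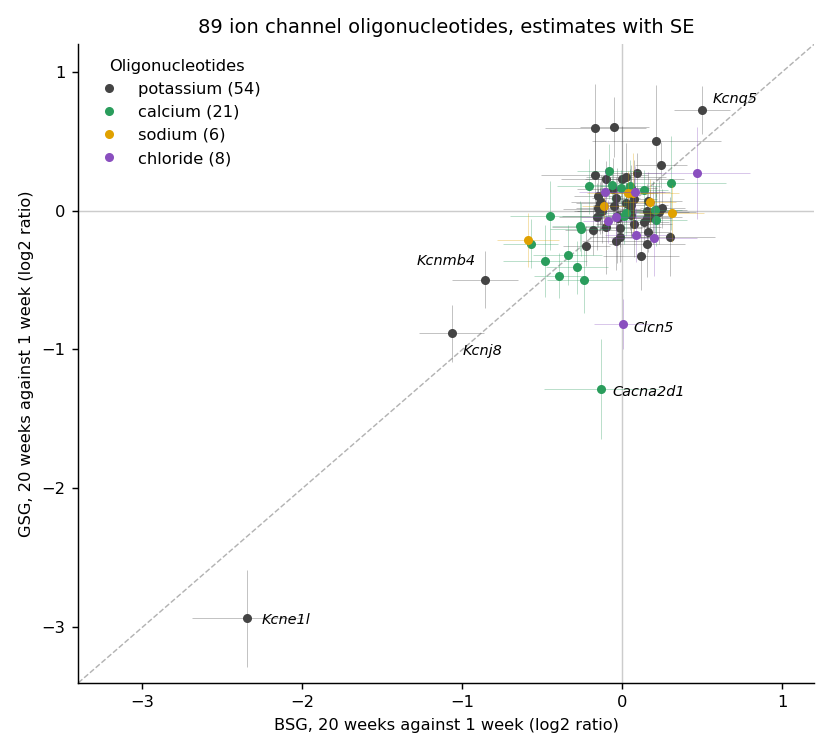
Log2 ratio of 20 weeks against 1 week in BSG (x axis) and GSG (y axis) for each of the 89 oligonucleotides, coloured by ion, with standard errors as thin lines and the line of equal change dashed. Most points lie within 0.5 of 0 on both axes, *Kcne1l* lies far below at -2.34 and -2.94, and *Clcn5* and *Cacna2d1* lie near 0 in BSG and below 0 in GSG.

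*Kcne1l* (also written *Kcne5*), an X-linked gene for a single-pass auxiliary subunit that binds voltage-gated potassium channels, had the largest change among the members. In BSG, the mice of loop 1 had log ratios against 1 week of -0.28 at 2.5 weeks, -0.99 at 4, -1.18 at 6, -1.56 at 8, -1.52 at 10, -2.27 at 12, -2.48 at 14 and -2.83 at 20 weeks. Those of loop 2 had -0.52, -1.94, -1.97, -2.08, -2.12, -1.68, -1.69 and -1.86 at the same ages. Loop 1 thus had its lowest values at the oldest ages, while loop 2 lay between -1.68 and -2.12 from 4 weeks on. In GSG, the mice of loop 1 had -0.22, -1.32, -1.32, -1.72, -1.84, -2.09, -2.24 and -1.97. Those of loop 2 had -0.57, -1.66, -2.10, -2.06, -2.75, -3.06, -2.84 and -3.90. All 32 mouse values at the 8 later ages lay below 0, although those of a loop are all set against the same 1-week mouse and so are not independent.

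The fitted change of *Kcne1l* from 1 to 20 weeks was -2.34 ± 0.35 in BSG (limma adjusted p = 0.000589) and -2.94 ± 0.35 in GSG (limma adjusted p = 1.02e-05). On a log2 scale these are 5.08-fold and 7.66-fold lower. The error terms are standard errors with n = 2 mice per age. They come from the spread of arrays pooled over strains and ages, and do not measure the spread of those 2 mice. Between 2.5 and 20 weeks *Kcne1l* fell by 2.54 ± 0.46 in GSG (limma adjusted p = 0.0167), 1 of 89 members called there, with 0.0738% of all. In BSG the same contrast was -1.94 ± 0.46 and did not pass (adjusted p = 0.390), nor did any other member there, with 3 at an unadjusted p under 0.05 and 0.0246% of all called. In GSG *Kcne1l* was also called at 12 weeks (-2.57 ± 0.52, adjusted p = 0.0492, 0.135% of all called) and 14 weeks (-2.54 ± 0.46, adjusted p = 0.00869, 0.357% of all called). Of the 1424 values of 89 members at 8 ages in 2 strains, 10 were called, and *Kcne1l* held 4 of these. At the remaining ages before 20 weeks 0 members were called (limma), with 4 to 9 members at an unadjusted p under 0.05. Of all oligonucleotides, 0.0123% were called in BSG at each age from 2.5 to 12 weeks and 0.0246% at 14 weeks, and in GSG 0.0984% at 2.5 weeks, 0.00% at 4 and 6 weeks, 0.0123% at 8 weeks and 0.0492% at 10 weeks. The 12 week call in GSG lay close to the threshold. In whole muscle, fewer cells of a type and less RNA per cell cannot be told apart.

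The change from 1 to 20 weeks was read by both routes around each loop. The closing array measured it directly and carries 88.9% of the weight in the estimate of its loop, and the other 8 arrays give it as a sum. On the closing arrays *Kcne1l* had -2.73 and -2.00 in BSG loops 1 and 2, and -2.12 and -4.24 in GSG loops 1 and 2. The sums over the other arrays were -3.65, -0.71, -0.81 and -1.15. All 8 values lay below 0, but in 3 of the 4 loops the sum was smaller in size than the direct value, in GSG loop 2 by 3.10. The fit spreads such a gap evenly over the steps of a loop. The *Kcne1l* values at middle ages and its fall after 2.5 weeks thus lean in part on the closing arrays. So do its GSG calls at 12 and 14 weeks. The later age was in Cy5 on the other 8 arrays but in Cy3 on a closing array. A dye term was among the alternatives fitted, but the part of the dyes in the gap itself was not tested. The closing array of GSG loop 2 gave the lowest value, at -3.90 and -4.59 on its 2 spots. Without BSG loop 1 the BSG change of *Kcne1l* was -1.86 and was no longer called (adjusted p = 1.00), with 1 mouse per age left in BSG.

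**Figure D2:**
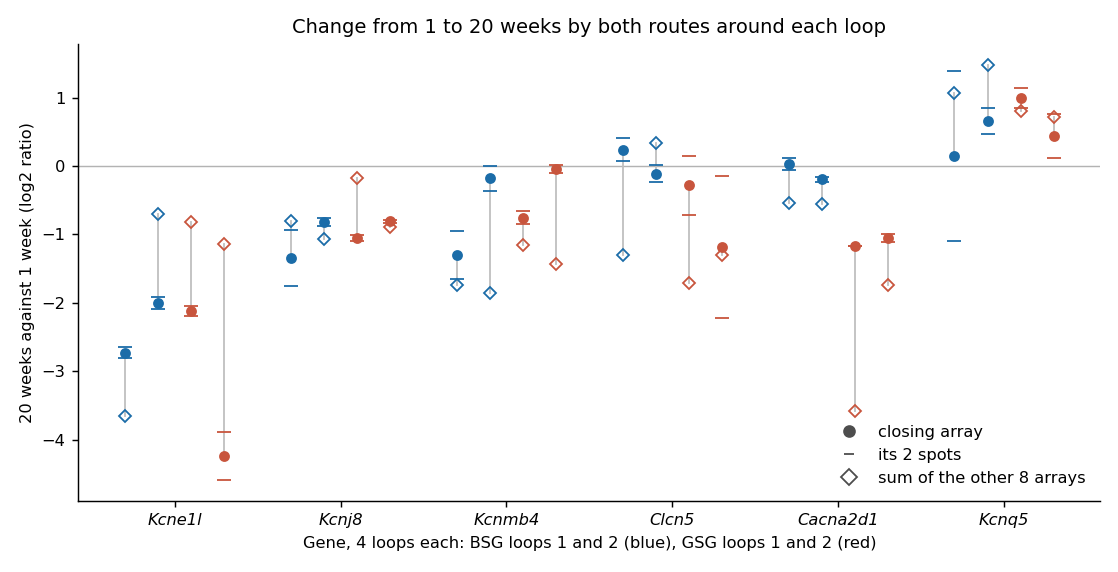
Log2 ratio of 20 weeks against 1 week (y axis) for 6 channel genes (x axis) in each of the 4 loops, as measured on the closing array (filled circle, with short bars for its 2 spots) and as the sum over the other 8 arrays of the loop (open diamond). For *Kcne1l* and *Kcnj8* all circles and diamonds lie below 0, and for *Clcn5* and *Kcnq5* the spots of a closing array lie far apart.

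*Kcnj8* encodes Kir6.1, the pore of ATP-sensitive potassium channels known from smooth muscle and pericytes of vessels. At 20 weeks the BSG mice had -1.29 and -0.85 and the GSG mice had -0.95 and -0.82. All 32 mouse values at the later ages lay below 0, although those of a loop share the same 1-week mouse. The fitted change was -1.07 ± 0.21 in BSG (adjusted p = 0.0113), and GSG had -0.88 ± 0.21 (limma adjusted p = 0.0133), or 2.10-fold and 1.84-fold lower. At 4 weeks the estimates were -1.04 in BSG and -0.76 in GSG, where neither was called. In BSG the estimates lay between -0.48 and -0.43 at 6 to 10 weeks and at -1.28 at 14 weeks. Both spots of each closing array lay between -1.76 and -0.77. *Kcnj11*, chosen after its values were seen as the gene for Kir6.2, the pore of the ATP-sensitive channel in muscle fibres, had -0.18 ± 0.18 in BSG and -0.14 ± 0.18 in GSG, and neither passed (adjusted p = 0.858 and 0.838). Without BSG loop 1 the BSG value of *Kcnj8* was -0.85 and without either GSG loop the GSG values were -0.82 and -0.95, and these calls were lost. With the replicate block they were lost (adjusted p = 0.143 in BSG and 0.168 in GSG), as with scaled arrays (0.220 and 0.139). From the first spots alone they were lost too, at -0.99 and -0.90 (adjusted p = 0.0869 and 0.0781). Without either BSG loop the GSG estimate is unchanged and its adjusted p was 0.0538 or 0.0554.

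Most markers of vessels, like *Kcnj8*, had lower values at 20 weeks. Of 6 endothelial genes, 5 lay below 0 in BSG (from -0.70 to 0.14, median -0.44) and 6 in GSG (from -0.83 to -0.31, median -0.64), and 0 were called. At an unadjusted p under 0.05 (limma) there were 4 in BSG and 6 in GSG, with 944 and 1196 of all. Of all 8129 oligonucleotides, 4322 lay below 0 in BSG and 4218 in GSG, and 0.849% and 3.03% were called lower. Of 3 smooth muscle genes, 3 lay below 0 in BSG (from -1.11 to -0.07) and 2 in GSG (from -0.68 to 0.18), with *Smtn*, the smoothelin gene, called in BSG. Their part in the change of *Kcnj8* was not tested. Beside *Kcne1l*, 9 of 11 oligonucleotides of immature or regenerating muscle lay below 0 in BSG and 8 in GSG, with *Dlk1* and *H19* called in each strain and *Myod1*, *Myog* and *Chrng* between -0.48 and 0.03, and their part was not tested either.

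*Kcnmb4* encodes a beta subunit of the calcium-activated BK potassium channel, best known from brain. At 20 weeks the BSG mice had -1.35 and -0.37 and the GSG mice had -0.80 and -0.20. In each strain the mouse of loop 1 lay lower than that of loop 2. The fitted change was -0.86 ± 0.20 in BSG (limma adjusted p = 0.0340) and -0.50 ± 0.20 in GSG, where it did not pass (adjusted p = 0.211). In BSG the estimate lay between -0.77 and -1.10 at every later age, so it was as low at 2.5 weeks (-0.84) as at 20. All 8 ages are set against the same 1-week mice. On the closing arrays the BSG loops had -1.30 and -0.18, and the sums over the other arrays were -1.74 and -1.85. The BSG call was lost with the replicate block (adjusted p = 0.123) and with scaled arrays (adjusted p = 0.266). The first spots alone gave -0.70 in BSG (adjusted p = 0.395). Without BSG loop 1 the BSG value was -0.37 and the call was lost, as it also was without either GSG loop, where the estimate is unchanged (adjusted p = 0.0988 and 0.0778).

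*Clcn5* encodes a chloride-proton exchanger of endosomes, known from the kidney tubule. At 20 weeks the BSG mice had 0.06 and -0.06 and the GSG mice had -0.44 and -1.20. The strain difference did not pass (adjusted p = 0.452). In GSG loop 2 every later age lay below 0, from -0.29 at 2.5 weeks to -1.20 at 20 weeks. The fitted change was 0.00 ± 0.18 in BSG (adjusted p = 1.00), and GSG had -0.82 ± 0.18 (limma adjusted p = 0.00916). On the closing array of GSG loop 2 the spots of this oligonucleotide disagreed, at -0.15 and -2.22. Second spots of other members also read far below the first there. *Kcnh3* had 0.37 and -2.00, *Kcnj15* 0.15 and -1.95, *Kcnj2* 0.31 and -1.54, and *Clcn1* (oligo1701) -0.28 and -1.69. Those of *Kcnj8* were close, at -0.79 and -0.83. Why the spots differed was not tested. The GSG change of *Clcn5* was -0.16 from the first spots alone and -1.48 from the second. With the first spots alone the call was lost (adjusted p = 0.969), as it was without GSG loop 2 (-0.44, adjusted p = 0.879), with the replicate block (adjusted p = 0.0680) and with scaled arrays (adjusted p = 0.0584).

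*Cacna2d1* encodes the alpha2delta subunit of the L-type calcium channel of muscle. At 20 weeks the BSG mice had -0.03 and -0.23 and the GSG mice had -1.44 and -1.13. The strain difference did not pass (limma adjusted p = 0.626). The fitted change was -0.13 ± 0.36 in BSG (adjusted p = 0.977), and GSG had -1.29 ± 0.36 (limma adjusted p = 0.0448), close to the threshold. At 6 weeks the GSG estimate was -2.17 ± 0.54, with -3.32 and -1.03 in the mice, and did not pass (adjusted p = 0.210). In BSG the highest estimate was 0.95 at 8 weeks, with 1.90 and 0.01 in the mice. In GSG loop 1 the routes around the loop gave -1.17 on the closing array and -3.58 as the sum. Leaving out any single loop of the 4 ended the GSG call, with adjusted p from 0.0949 to 0.123. It was also lost with the replicate block (adjusted p = 0.286) and with scaled arrays (adjusted p = 0.235).

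*Kcnq5* encodes Kv7.5, a voltage-gated potassium channel pore found in brain and in skeletal and smooth muscle, and was the member with the highest value at 20 weeks in each strain. The BSG mice had 0.25 and 0.74 and the GSG mice had 0.97 and 0.47. All 4 lay above 0 and the strains overlapped. The fitted change was 0.50 ± 0.17 in BSG (adjusted p = 0.194), and GSG had 0.72 ± 0.17 (limma adjusted p = 0.0165). In GSG the estimates were 0.00 at 2.5 weeks, 0.26 at 8 weeks and 0.56 at 14 weeks. In BSG the first spots alone gave -0.18 and the second 1.18, since the spots of the closing array of loop 1 read -1.10 and 1.39. Without GSG loop 1 the GSG value was 0.47 and without GSG loop 2 it was 0.97, and the call was lost in both. It was also lost with the replicate block (adjusted p = 0.266) and with scaled arrays (adjusted p = 0.0905).

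**Figure D3:**
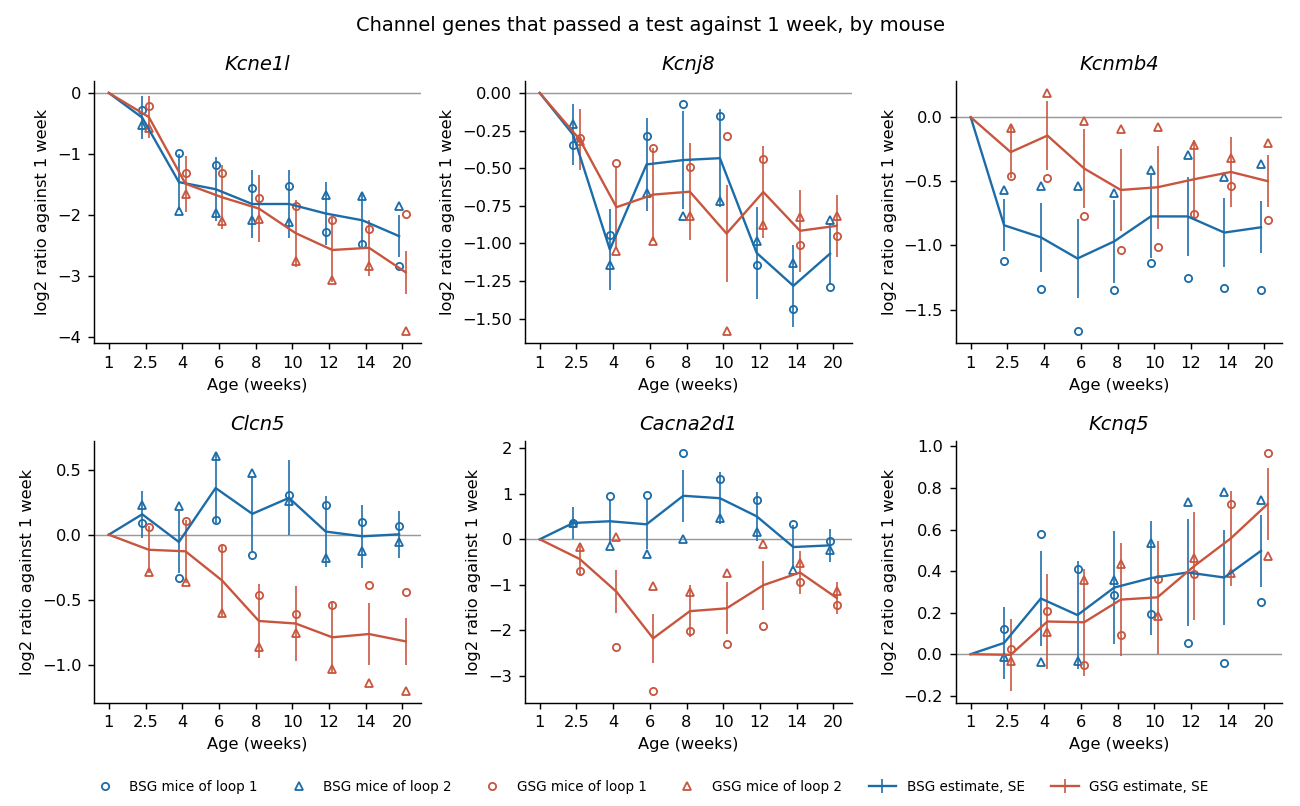
Log2 ratio against 1 week (y axis, scaled for each panel) by age in weeks (x axis, equal steps per time point) for the 6 channel genes called at an age, in BSG (blue) and GSG (red). Lines are fitted estimates with standard errors and symbols are the mice of each loop. *Kcne1l* falls to -2.34 and -2.94 at 20 weeks, and *Clcn5* and *Cacna2d1* lie below 0 in GSG while their BSG estimates end at 0.00 and -0.13.

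Calls were counted by subgroup, beside 1.28% of all oligonucleotides called in BSG and 3.74% in GSG, and nothing is read from such small counts. Of 12 auxiliary subunit oligonucleotides, 2 were called in BSG and 1 in GSG, all lower, with medians of -0.04 and -0.06. Of 14 of inward rectifiers, 1 was called lower in each strain, with medians of 0.00 and 0.04, and of 19 of voltage-gated pores 1 was called higher in GSG, with medians of 0.05 and 0.01. The 6 of two-pore channels lay between -0.15 and 0.23 in both strains. The 3 placed by symbol alone with calcium- or sodium-activated channels lay between -0.26 and 0.03. In these 2 subgroups 0 were called. The median over all 54 was 0.01 in BSG and 0.00 in GSG.

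Of 21 calcium channel oligonucleotides, 14 lay below 0 in BSG (median -0.13) and 13 in GSG (median -0.04), and 1 was called, *Cacna2d1* in GSG, where 3.74% of all were called. The 9 of pore subunits ranged from -0.57 to 0.21 in BSG and from -0.47 to 0.18 in GSG. *Cacna1g*, a T-type pore, had the lowest value in BSG, with -0.82 and -0.33 in the mice, and did not pass (-0.57 ± 0.17, adjusted p = 0.110). In GSG it had -0.24 ± 0.17 (adjusted p = 0.626). *Cacnb1*, the beta subunit of the muscle L-type channel, had -0.64 and -0.33 in the BSG mice and -0.42 and -0.31 in the GSG mice. All 4 lay below 0, and neither fitted change passed (-0.48 ± 0.26 and -0.36 ± 0.26, adjusted p = 0.502 and 0.615). *Cacng1*, the gamma subunit of the same channel, chosen after its values were seen, had -0.34 ± 0.22 and -0.32 ± 0.22 and did not pass. *Cacng3*, a gamma subunit known from brain, had the lowest value of the 4 gamma genes in GSG, -0.50 ± 0.23 (adjusted p = 0.306), and -0.24 ± 0.23 in BSG.

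Of 8 chloride channel oligonucleotides, 1 was called, *Clcn5* in GSG (3.74% of all called), and the medians were 0.04 in BSG and -0.06 in GSG. *Clcn4*, a further endosomal exchanger, had the highest value in each strain, 0.47 ± 0.33 in BSG, with 0.84 and 0.10 in the mice, and 0.27 ± 0.33 in GSG, with 0.66 and -0.11. In GSG the first spots alone gave 0.82 for *Clcn4* and the second -0.28. The spots of the closing array of GSG loop 1 read 1.75 and -0.91. Its mice of loop 2 lay near 0, and it did not pass in either strain (limma adjusted p = 0.695 and 0.832). *Clcn3*, of the same exchanger family, had 0.08 ± 0.19 and -0.18 ± 0.19, and *Clcn6*, of late endosomes, had -0.11 ± 0.17 and 0.13 ± 0.17.

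All 6 sodium channel oligonucleotides stand for pore subunits of nerve or related types, with medians of 0.05 in both strains, and 0 were called (1.28% of all in BSG and 3.74% in GSG). *Scn11a*, a pore of sensory neurons, had the lowest value, with -0.96 and -0.21 in the BSG mice and -0.12 and -0.30 in the GSG mice. All 4 lay below 0, and the fitted changes did not pass (-0.59 ± 0.19 and -0.21 ± 0.19, adjusted p = 0.153 and 0.734). *Scn10a*, also of sensory neurons, had the highest value in BSG, 0.31 ± 0.20, and -0.02 ± 0.20 in GSG. The brain pores *Scn1a* and *Scn3a* had 0.13 ± 0.29 and 0.13 ± 0.16 in GSG, and *Scn7a*, a sodium sensor of glia, had 0.17 ± 0.16 in BSG. Of 8 oligonucleotides of nerve and Schwann cell genes, 1 was called lower in each strain, *Pmp22*, and the medians were -0.03 and 0.02.

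**Figure D4:**
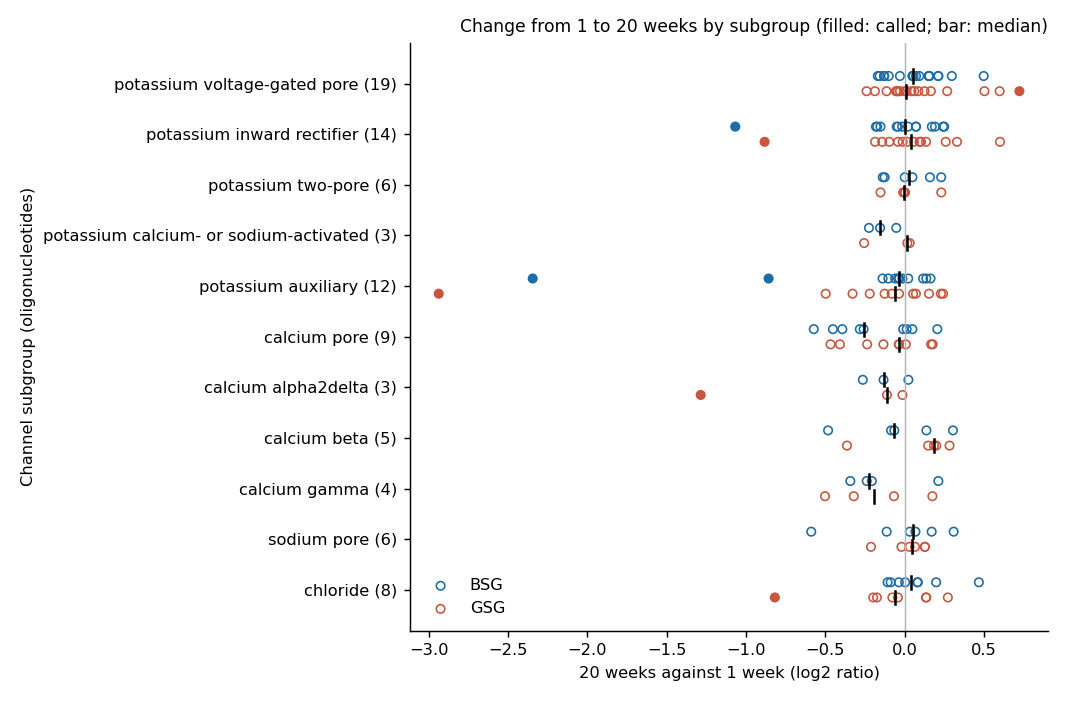
Log2 ratio of 20 weeks against 1 week (x axis) for the oligonucleotides of each channel subgroup (y axis, number in brackets) in BSG (blue) and GSG (red). Filled points were called (adjusted p under 0.05) and the black bar is the subgroup's median; the filled points are few and the medians lie between -0.26 and 0.18.

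Several oligonucleotides of a gene gave a check within the arrays. The 2 of *Clcn1* disagreed. The first (oligo1701) had 0.94 at 2.5 weeks, 1.96 at 8 weeks and 0.42 at 20 weeks in BSG loop 1, while BSG loop 2 lay between -0.22 and 0.34. The other (oligo4593) lay between -0.22 and 0.02 in BSG loop 1. In GSG at 2.5 weeks the 2 gave 0.47 ± 0.27 and 0.79 ± 0.19 (adjusted p = 0.788 and 0.0699), and neither passed at any age. At 20 weeks *Clcn1* had 0.20 ± 0.27 and 0.08 ± 0.19 in BSG and -0.20 ± 0.27 and 0.14 ± 0.19 in GSG. For oligo1701 the closing array of GSG loop 2 read -0.28 and -1.69 on its 2 spots. The 2 of *Cacna1h*, a T-type pore, had -0.39 ± 0.16 and 0.21 ± 0.17 in BSG and -0.47 ± 0.16 and 0.01 ± 0.17 in GSG, and the 3 of *Cacnb4*, a beta subunit of brain, ranged from -0.09 to 0.30 in BSG and from 0.18 to 0.28 in GSG. The 3 of *Kcnj6*, an inward rectifier of brain, ranged from -0.05 to 0.25 in BSG and from 0.02 to 0.60 in GSG, and the 3 of *Kcnq1*, a partner of Kcne subunits in heart, from -0.13 to 0.05 and from -0.03 to 0.16. None of the oligonucleotides of these 5 genes was called at 20 weeks. *Kcne1l*, *Kcnj8*, *Kcnmb4*, *Clcn5*, *Cacna2d1* and *Kcnq5* each rest on 1 oligonucleotide.

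Over all 8 later ages together (limma moderated F test), *Kcne1l* passed in GSG (adjusted p = 0.00362), 1 of 89 members, with 0.590% of all called. In BSG 0 members passed, with 0.0984% of all called and 5 members at an unadjusted p under 0.05. The lowest adjusted p there were 0.0656 for *Kcnj8* and 0.0907 for *Kcne1l*. The standard error depends on the place in the loop and had a median over members of 0.19 at 20 weeks and 0.30 at 8 weeks, so changes at middle ages were measured less precisely.

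Whether the strains differ was tested in 3 ways, and 0 of 89 members passed any of them. In the change from 1 to 20 weeks (limma; 0.00% of all called, 586 of all and 3 members at an unadjusted p under 0.05), BSG exceeded GSG by 0.82 ± 0.26 for *Clcn5* (unadjusted p = 0.00377, adjusted p = 0.452) and by 1.15 ± 0.51 for *Cacna2d1* (unadjusted p = 0.0323, adjusted p = 0.626). The remaining member was *Kcnj6* (oligo12460), with -0.65 ± 0.30 (unadjusted p = 0.0416). The *Clcn5* difference rests on GSG spots that disagreed. For *Kcne1l* the difference was 0.59 ± 0.49 (adjusted p = 0.855), for *Kcnj8* -0.18 ± 0.29 and for *Kcnmb4* -0.36 ± 0.29, so a call in 1 strain alone does not show a difference between them. The temporal Hotelling test of the profiles, with a quadratic polynomial in the time point number, called 0 (0.00% of all; 5 members and 358 of all at an unadjusted p under 0.05). Of these members, *Cacnb4* (oligo13837) had an unadjusted p of 0.0119, *Clcn1* (oligo4593) 0.0128, *Kcnj11* 0.0154, *Clcn5* 0.0243 and *Kcnj6* (oligo12460) 0.0288. The non-temporal test of the 8 ages also called 0 (0.00% of all). At an unadjusted p under 0.05 it had 2 members and 127 of all, the members being *Kcnj11* (0.0394) and *Kcnn4* (0.0471). The study lists genes, such as *Matn2*, whose BSG and GSG profiles differ by its pairwise temporal test. The temporal test as run here recovered none of them, and the reason was not tested.

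Other channel and calcium genes of muscle lay outside the rule and were taken from a list of symbols. The 101 oligonucleotides matched by symbol to other channel families include water channels and gap junction proteins. The match also took in genes outside those families, such as *Tmem165* and *Trpc4ap*. Of the 101, 2 were called lower in each strain and 0 higher. In both strains these were *Aqp4*, the water channel of fast fibres (-0.86 ± 0.15 and -0.66 ± 0.15), and *Gja4*, a gap junction protein of vessels (-0.89 ± 0.16 and -0.77 ± 0.16). Of 31 of excitation-contraction coupling and ion pumps, which share *Ryr1* and *Ryr3* with the 101, 1 was called in each strain. It was *Casq2*, the calsequestrin of slow and cardiac muscle, which was lower (-1.58 ± 0.32 and -2.27 ± 0.32). Of all oligonucleotides 1.28% were called in BSG and 3.74% in GSG. At an unadjusted p under 0.05 there were 6 and 10 of the 101, and 4 and 10 of the 31. The medians of these lists were -0.02 and 0.00, and 0.01 and -0.12.

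The values of the arrays limit what can be read of single channel genes. Over the 89 members, duplicate spots of an array correlated at -0.18 to 0.73 (median 0.32), and on the closing arrays at 0.19 to 0.73. Over all oligonucleotides the correlation was below 0.3 on 9 arrays, 4 of BSG loop 1, 4 of GSG loop 1 and 1 of GSG loop 2. Without error or dye effects the 9 log ratios around a loop sum to 0. The absolute sum had a median over members of 0.68 to 0.83 in the 4 loops, and reached 4.74. As the values are ratios, presence of the labelled tissue's markers cannot be read, and of 8 fibre genes 0 were called. In BSG 4 lay above 0 (median 0.06) and in GSG all 8, from 0.13 to 0.59 (median 0.33). Of 7 macrophage oligonucleotides, 4 were called higher in GSG (median 1.45) and 0 in BSG (median 1.21). Of 7 of fibroblasts 3 were called lower in GSG and 1 in BSG, of 3 erythroid genes 1 was called lower in GSG and 0 in BSG, and of 3 heart and 2 adipocyte genes 0 were called in either strain. Of all oligonucleotides, 0.431% were called higher in BSG and 0.713% in GSG, and 0.849% and 3.03% lower. The part of these markers in the channel results was not tested.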

How the data were processed

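Gene expression in 36 mice was measured on 36 dual-channel arrays, with each oligonucleotide spotted 2 times. The authors corrected the scanned signals for spatial, dye and between-array effects and deposited a log ratio of the channels for each spot. The base and direction of the deposited log2 ratios are not given in the sources used here: they were taken as log2 of Cy5 over Cy3, as the range of the values allows, and the centring of the arrays is that of the authors. With 0 values missing, all oligonucleotides were kept and the deposited normalization was left as it was. Array quality limits the precision, since the files hold no counts.

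The 2 spots of an oligonucleotide were averaged, and 80 pairs of *Gapdh* control spots likewise. Genes were named from the platform annotation: of 8129 oligonucleotides, 6752 have 1 symbol, 7 several and 1370 none. Ages were fitted with limma (version 3.58.1, R version 4.3.3; lmFit and eBayes, 2-sided) over all 36 arrays, with 8 parameters per strain relative to 1 week and 1 shared estimate of the spread. The temporal Hotelling test of BSG against GSG follows the formula in the study's methods (polynomial of degree 2, with 3 and 30 degrees of freedom), but did not recover the differences the study lists. Its non-temporal version, without time order, departs from them: the study's methods count every time point, whereas ratios estimate only the 8 ages relative to 1 week, so 8 and 20 degrees of freedom were used. All p were adjusted by Benjamini-Hochberg over 8129 oligonucleotides at 0.05. The value of a mouse is the least-squares estimate within its loop. Loop numbers come from the sample titles. They link the mice of a strain through shared arrays and pair no mice between strains. Error terms are standard errors of the limma fit, from a spread pooled over strains and ages, not the spread of the 2 mice. The fit takes the 36 arrays as independent, although each mouse is on 2 of them. The alternative with 1 value per animal sets the 1-week mouse of a loop to 0. It takes the values of a loop as independent, although they come from the same arrays, so its p are approximate. The limma fit was tested on simulated data with the same layout. Python (version 3.11.15) with matplotlib (version 3.10.9) drew the figures.

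The members, the lists of other genes and markers, and the tests were chosen with earlier results of these data known. The rule for named genes took *Kcne1l*, *Cacna2d1* and *Clcn1*, members that passed a test, and at 20 weeks, per ion and strain, up to 3 of lowest p and those of highest and lowest value. *Kcnj6*, *Kcnq1*, *Kcnj11*, *Kcnn4*, *Cacng1*, *Kcnh3*, *Kcnj15* and *Kcnj2* fall outside it and were named after their values were seen. Of each further list, up to 3 genes that passed are named. Alternatives were: least squares without moderation, a dye term, centred or scaled arrays, 1 value per animal, loops as a random block, single or separate spots, leaving out arrays whose 2 sets of spots correlated below 0.3, each loop left out, and for the Hotelling tests limma's moderated F test and age in weeks.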

Additional observations from a re-analysis of the deposited data

How the results depend on the processing

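Of the counts of channel genes past the threshold, 90 of 117 values under the alternatives stayed at the reported count or within 1.5 times of it. Several reported counts were 0, and those that stayed at 0 are among the 90, so this share says little of the calls. For 20 weeks against 1 week, scaled arrays left 1 member in BSG and 1 in GSG, in place of 3 and 5, and so did 1 value per animal with the loop as a replicate block (1 and 1). In each of these *Kcne1l* was the member called. The first spots alone left 1 in BSG. Without the arrays of discordant duplicate spots, 1 was left in BSG and 3 in GSG. With a loop left out in turn the counts ran from 0 to 3 in BSG and from 1 to 3 in GSG. The BSG count was 0 without BSG loop 1, and in GSG *Kcne1l* was called without each of the loops. For 20 weeks against 2.5 weeks in BSG, the first spots alone or both spots kept gave 1 in place of 0. In GSG, scaled arrays or the second spots alone gave 0 in place of 1, and with a loop left out the count ran from 0 to 1. Over all ages in BSG, a dye term gave 1 in place of 0, the loops as a random block gave 2, the first spots alone 1 and both spots kept 4, and in GSG the count ran from 0 to 5 with a loop left out. The temporal test called from 0 to 1 with a loop left out, the 1 being *Clcn1* without GSG loop 2. Counts of strain differences in the change from 1 to 20 weeks and of the non-temporal test were 0 under every alternative. With the replicate block, the counts for 20 weeks against 2.5 weeks (0 and 1), over all ages (0 and 1) and between strains (0) were as reported. Over all 8129 oligonucleotides the calls at 20 weeks against 1 week, 104 in BSG and 304 in GSG, ran from 1 to 373 and from 83 to 471 under the alternatives. Of 616 values of named oligonucleotides at 20 weeks under the alternatives, 563 kept their direction and side of the threshold (or, below it, moved by less than their standard error), 41 lost a call, 3 gained one and 9 turned sign with no call on either side. The cause was not tested. Only 3 of the named oligonucleotides in BSG and 5 in GSG were called as reported, so most of these values had no call to lose. With a loop left out, a strain keeps 1 mouse per age, assumed to vary like the others, and calls can be lost through fewer arrays alone.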
